A study of Canis lupus familiaris with 4 samples.

Results

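Drug transporters and cytochrome P450 enzymes of the CYP1 family were examined in mammary tumours of dogs, comparing grade 3, labelled the most malignant, with grade 1, labelled less malignant. Of 6 listed genes, 4 had a probe whose dog RefSeq mRNA accession could be matched to their symbol: ABCB1 with 2 probes, SLC15A1 with 1, CYP1A2 with 2 and CYP1B1 with 2. ABCG2 and CYP1A1 had no matched probe and were not analysed here. The 7 probes are part of 43603 on the array, and the 4 genes part of 1045 that could be named. The 4 two-colour Agilent arrays each set one grade against the other, 2 of them with grade 3 labelled in Cy5 and 2 with the dyes swapped. Biological replicates are named, but neither the animals nor the arrays that share an extract are given, and all arrays lay on 1 slide. A p-value here therefore covers array-to-array spread alone, part of which may be technical. The titles speak of tumours, while the protocols describe cancer cells grown with sorted monocytes for at least 72 h and sorted again, and the sources used here do not settle which was hybridised. In RNA of whole samples, fewer cells of a type and less RNA per cell cannot be told apart.

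The genes stand for both ends of drug handling. ABCB1 encodes P-glycoprotein, a membrane pump that uses ATP to export lipophilic compounds, among them anthracyclines and vinca alkaloids, and is known for multidrug resistance of tumours and for limiting drug entry into the brain. SLC15A1 encodes the peptide transporter PEPT1, a proton-coupled importer of short peptides and beta-lactam antibiotics in the brush border of the small intestine and kidney. CYP1A2 and CYP1B1 encode monooxygenases of the endoplasmic reticulum that oxidise aromatic compounds and oestrogens. They are induced through the aryl hydrocarbon receptor, CYP1A2 mainly in liver and CYP1B1 mainly in other tissues, the mammary gland included.

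SLC15A1 was far lower in grade 3, ABCB1 was moderately lower, and the CYP1 genes gave different answers by probe. All of the 6 tested member probes passed an adjusted p of 0.05 (limma), 2 of them higher and 4 lower, and 5 had the same sign on every array. Calls were common: of 35412 tested probes 61.7% were called, 31.1% higher and 30.5% lower, and 51.7% were called with one sign on all 4 arrays. A call alone therefore does not set the members apart. A change of at least 2-fold was called for 3.19% of probes, 1.75% being lower, and among the member probes for SLC15A1 alone. Every value is relative to the other probes of the same array, since each array was centred by loess, a curve that removes the average dye difference at each brightness. Spike-in controls, synthetic RNAs added to the samples, were lower in grade 3 by 0.45 to 0.78 on the log2 scale. This is the mean of 320 spots per array after loess, and whether equal amounts were added to both grades was not checked. Scaling to them moved the all-probe median from 0.00453 to 0.67. Its fit gave every probe measured on all arrays the same SE of 0.10, so its calls share any error of the controls. With that scaling 97.2% of calls were higher, against 50.5% as reported, 63.9% with median centring in place of loess, and 34.5% with the local backgrounds used as measured.

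**Figure D1:**
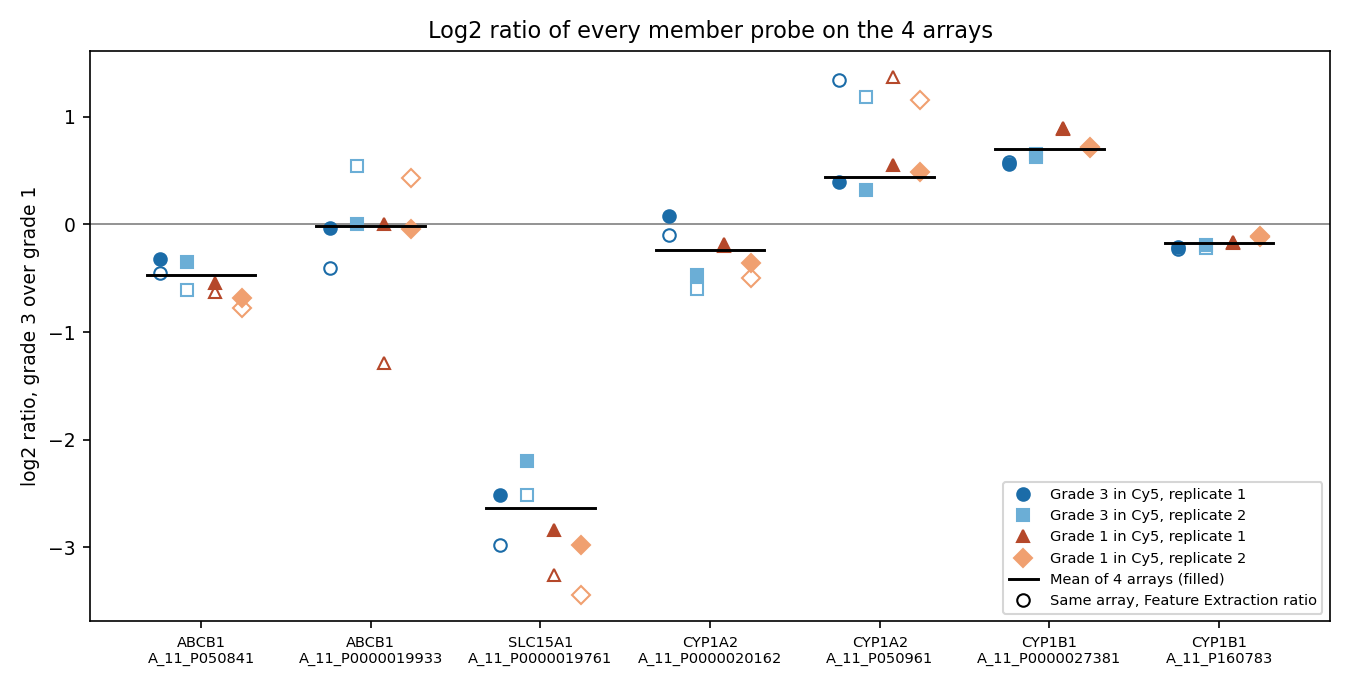
Log2 ratio of grade 3 over grade 1 (vertical axis) for each of the 7 member probes (horizontal axis) on each array, with filled symbols for normexp and loess values, open symbols for the deposited Feature Extraction ratios, and a line at the mean of the filled symbols. SLC15A1 sits between -2.98 and -2.20 on all arrays, and the probes of CYP1A2 and of CYP1B1 sit on opposite sides of 0 on all arrays except one for CYP1A2.

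SLC15A1, the peptide importer, had the lowest value among the members. Its probe, A_11_P0000019761, gave log2 ratios of grade 3 over grade 1 of -2.52 and -2.20 on the arrays with grade 3 in Cy5 and of -2.84 and -2.98 on those with grade 1 in Cy5. All 4 arrays were low, and the orientations differed in size but not in sign. In scanner units the spot read 269, 283, 192 and 224 in grade 3, on local backgrounds of 30 to 43, and 851, 890.5, 1274 and 1503 in grade 1. The signal was well above background in both grades on every array, and the grades did not overlap. The single-channel level, a log2 intensity after normalization, was 7.74 ± 0.22 in grade 3 and 10.38 ± 0.18 in grade 1 (SD, n = 4 arrays). SLC15A1 was thus 6.21-fold lower in grade 3 (log2 fold change -2.64 ± 0.06 SE, 95% confidence interval -2.77 to -2.50, limma adjusted p = 1.14e-09). Its change ranked 25 from the lowest of the 35412 tested probes and 3 from the lowest of 925 named genes. The SE comes from a fit with a dye term, which takes up the difference between orientations; the SD of the 4 ratios was 0.35.

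The size of the SLC15A1 difference varied with the background correction more than with the choice of arrays. With the local backgrounds as measured it was 3.63-fold, with the deposited processed signals 8.30-fold, and with spike-in scaling 3.91-fold, and it was called lower each time. The call was much weaker with the local backgrounds as measured, where the SE was 0.38 (limma adjusted p = 0.0315). Leaving out 1 array at a time gave log2 fold changes from -2.71 to -2.56.

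Genes that mark the brush border were split. Of 16 listed for intestine and kidney 5 were tested, and their median log2 fold change was 0.0043: 2 were higher, 1 was lower and 2 were not called. ANPEP, the brush border aminopeptidase that releases the small peptides PEPT1 carries and that myeloid cells also make, was 1.83-fold lower (log2 fold change -0.87 ± 0.06). CUBN, an endocytic receptor of ileum and kidney, was 1.64-fold higher, and TFF3, a secreted trefoil peptide gene also expressed in mammary epithelium, 3.62-fold higher. The glucose carrier gene SLC5A2 had -0.09 ± 0.05 and UMOD, a kidney tubule gene, 0.0043 ± 0.05. The summed level of the 5 genes, in linear intensity units, was 6212 to 7397 in grade 3 and 9081 to 11910 in grade 1 over the 4 arrays. That sum is mostly ANPEP, with log2 levels of 12.28 in grade 3 and 13.155 in grade 1, so it does not describe the set. Over all 925 named genes 46.1% were called lower and 24.1% higher. Macrophage markers were mostly lower in grade 3 beside SLC15A1: of 13 listed, 5 were tested, 4 of them lower and 1 higher. Their summed level was 31480 to 37640 in grade 3 and 58350 to 68470 in grade 1, with CCL2 the largest part (log2 levels 14.13 and 15.17). All of these markers were well above background in both grades on every array, except UMOD, which was so on 3 of 4 in grade 1. Their part in the SLC15A1 result was not tested.

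By Euclidean distance between the 4 log2 ratios, the named genes nearest to SLC15A1 among 924 were MMP3 (distance 0.61), IL1B (0.95) and ADGRE3 (1.07). MMP3, a matrix protease gene, ran from -2.61 to -2.34, IL1B, the interleukin 1 beta gene, from -2.35 to -1.93, and ADGRE3, a leukocyte receptor gene, from -2.29 to -2.08. These genes were picked for ratios close to those of SLC15A1, so being low on every array follows from that choice.

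ABCB1, the P-glycoprotein gene, was lower in grade 3 by the one probe that could be measured. Probe A_11_P050841 gave log2 ratios of -0.32 and -0.35 with grade 3 in Cy5 and of -0.54 and -0.68 with grade 1 in Cy5. All 4 arrays lay below 0, those with grade 1 in Cy5 further than the others. Its level was 8.24 ± 0.10 in grade 3 and 8.71 ± 0.07 in grade 1 (SD, n = 4 arrays), with no overlap. The fit put ABCB1 1.39-fold lower (log2 fold change -0.47 ± 0.05 SE, 95% confidence interval -0.58 to -0.36, limma adjusted p = 2.11e-05), and 16.9% of all tested probes changed by more. With the local backgrounds as measured the log2 fold change was -0.31 and no longer called (limma adjusted p = 0.0643), and with spike-in scaling it turned to 0.19, not called (limma adjusted p = 0.0599).

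The second ABCB1 probe, A_11_P0000019933, was not well above background in either grade on any array, so it has no measured direction. It read 68, 53, 51 and 64 scanner units in grade 3 and 50, 44, 50 and 56 in grade 1, on backgrounds of 31 to 47. Its log2 ratios lay between -0.04 and 0.01 after the offset of 50 units added to each signal, and the deposited ratios of the same spots scattered from -1.28 to 0.54. No fold is given for it.

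**Figure D2:**
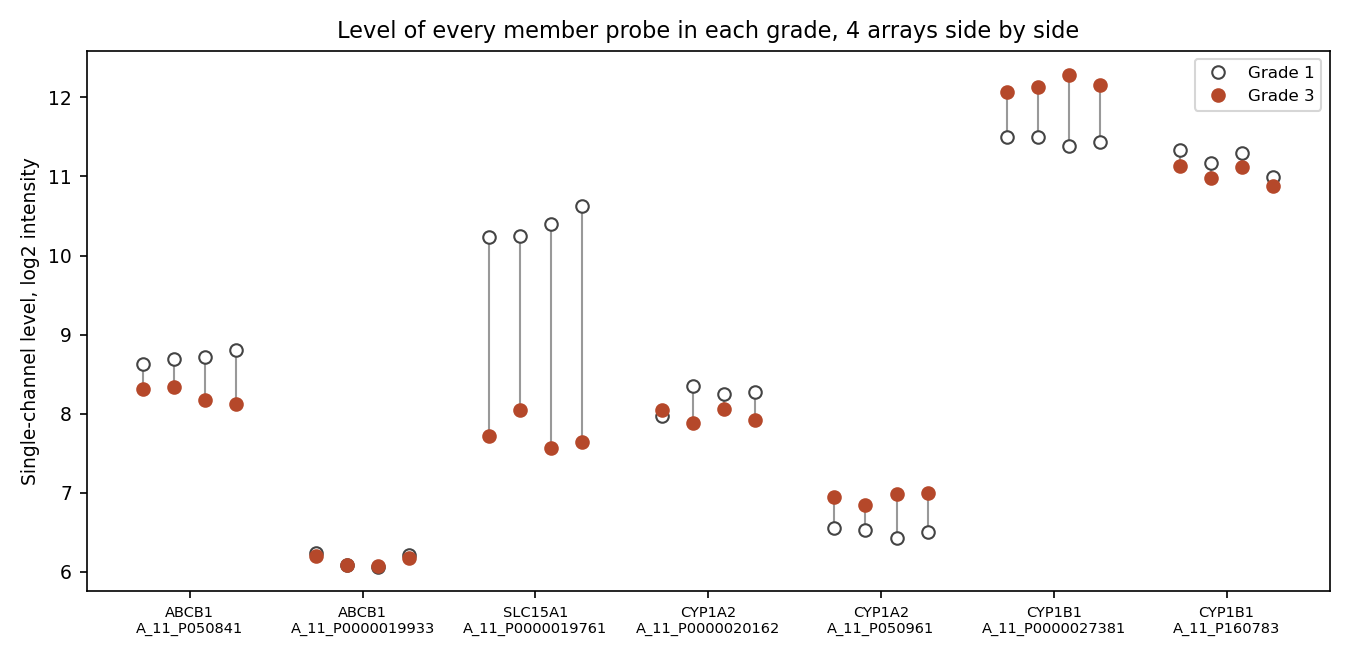
Single-channel level in log2 intensity (vertical axis) of the 7 member probes (horizontal axis) in grade 3 (filled) and grade 1 (open), with the 4 arrays side by side and a line joining the grades of one array; levels of different probes cannot be set against each other. The grades are far apart for SLC15A1 (7.74 against 10.38), lie close for ABCB1 probe A_11_P050841 (8.24 against 8.71), and nearly coincide for the dim ABCB1 probe (6.13 against 6.15).

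The genes nearest to ABCB1 over the 4 ratios were FLT3 (distance 0.06), a receptor tyrosine kinase gene of haematopoietic progenitors, ADGRE1 (0.14), a macrophage surface receptor gene, and ASPM (0.14), a mitotic spindle gene. Their log2 fold changes were -0.47, -0.51 and -0.46.

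Other ATP-binding cassette genes were mostly slightly lower. The median log2 fold change of 8 tested members of this transporter family, ABCB1 included, was -0.22, and 6 were lower, 1 higher and 1 not called. Over all 925 named genes the median was -0.09, and 70.2% were called, 46.1% lower and 24.1% higher. With spike-in scaling CFTR alone among the 8 was still below 0, at -0.89. CFTR, the chloride channel gene of epithelia, was 2.95-fold lower (log2 fold change -1.56 ± 0.06, limma adjusted p = 2.56e-08), which is further than ABCB1, and 1.86-fold lower with spike-in scaling. With the local backgrounds as measured CFTR was 1.94-fold lower and not called (limma adjusted p = 0.0537). ABCA4, a retinal lipid transporter gene, was 1.27-fold lower, and with median centring at -0.10 and not called (limma adjusted p = 0.105).

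The multidrug resistance proteins of the ABCC branch, which export drug conjugates, changed little with the processing as reported. ABCC1 and ABCC2 had log2 fold changes of -0.22 ± 0.06 and -0.22 ± 0.05, both called. With median centring ABCC1 was at -0.02 and not called (limma adjusted p = 0.799), while ABCC2 was at -0.36 and called (limma adjusted p = 0.00013). ABCC2 was at -0.50 with the processed signals, also called (limma adjusted p = 0.00217). With the local backgrounds as measured ABCC1 was at -0.20 and ABCC2 at -0.11, neither called (limma adjusted p = 0.102 and 0.276). ABCC5 had -0.22 ± 0.06 by its brightest probe, with 1 of 4 arrays above 0, and its other probes had -0.07 and 0.06. ABCC4, which exports nucleotides and prostaglandins, had 0.01 ± 0.05 (limma adjusted p = 0.895). ABCB11, the bile salt export pump gene and a close relative of ABCB1, was 1.39-fold higher (0.47 ± 0.05), with all 4 arrays between 0.38 and 0.59. The call on ABCB11 was lost with the local backgrounds as measured (limma adjusted p = 0.124), and with the processed signals it was 2.08-fold higher.

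**Figure D3:**
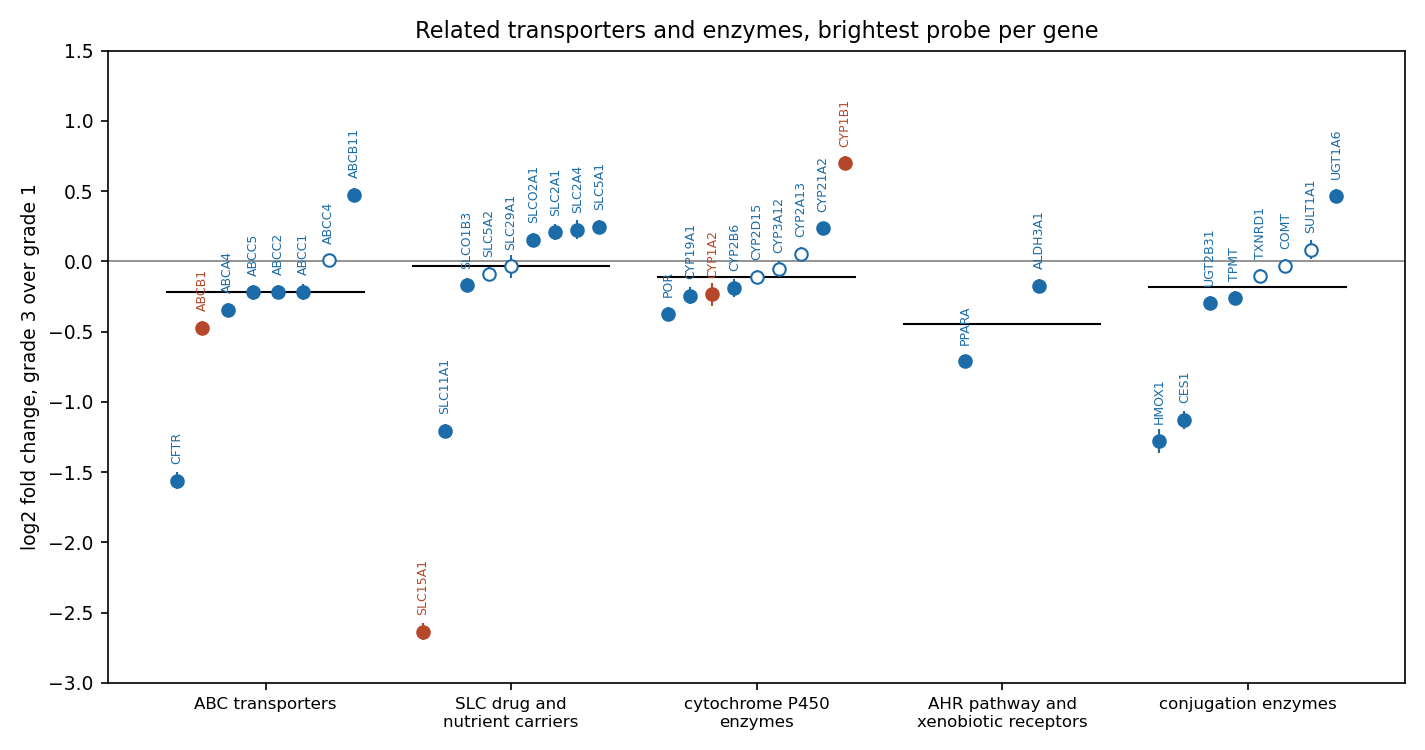
Log2 fold change of grade 3 over grade 1 (vertical axis, bars are moderated SE) for the brightest probe of each tested gene in 5 lists (horizontal axis), filled where called and open where not, with members in red and a line at each list's median. SLC15A1 at -2.64 is the lowest point and CYP1B1 at 0.70 the highest.

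Among solute carriers SLC15A1 stood apart in size. The 9 tested of 47 listed carriers of drugs and nutrients had a median of -0.04, with 4 higher, 3 lower and 2 not called. The other 2 lower genes were SLC11A1, the phagosomal metal transporter gene of macrophages (2.31-fold lower), and SLCO1B3, an organic anion importer gene of liver (log2 fold change -0.17 ± 0.05). The carriers that rose did so by small amounts. SLC5A1, the intestinal sodium-glucose carrier gene, had 0.24 ± 0.05, and SLC2A4, the insulin-regulated glucose carrier gene, 0.23 ± 0.07. SLC2A1, the general glucose carrier gene, had 0.21 ± 0.06 by its brightest probe and 0.04 by its other. In grade 1 SLC2A4 was well above background on 3 of 4 arrays. It was no longer called when either replicate 1 array was dropped (limma adjusted p = 0.0936 for the one with grade 3 in Cy5 and 0.0952 for the swapped one). The calls on SLCO1B3 and SLC2A1 ended without the replicate 1 array with grade 1 in Cy5 (limma adjusted p = 0.146 and 0.109), and with spike-in scaling SLCO1B3 turned to 0.50. SLC6A4 and SLC10A2 had named probes that did not pass the filter on dim signal.

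CYP1B1, the oestrogen-hydroxylating enzyme gene, was higher by one probe and slightly lower by the other, both of them bright. Probe A_11_P0000027381, the brighter, gave log2 ratios of 0.56 and 0.63 with grade 3 in Cy5 and of 0.89 and 0.71 with grade 1 in Cy5. All 4 arrays were above 0. Its level was 12.16 ± 0.09 in grade 3 and 11.46 ± 0.05 in grade 1 (SD, n = 4 arrays), without overlap, and it was 1.62-fold higher (log2 fold change 0.70 ± 0.05 SE, 95% confidence interval 0.59 to 0.81, limma adjusted p = 1.89e-06).

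Probe A_11_P160783 of the same accession gave -0.21 and -0.19 with grade 3 in Cy5 and -0.18 and -0.11 with grade 1 in Cy5. All 4 arrays were below 0, by small amounts. Its levels were 11.03 ± 0.12 in grade 3 and 11.20 ± 0.16 in grade 1 and overlapped between arrays, although on each array grade 3 was the lower. It was 1.13-fold lower (log2 fold change -0.17 ± 0.05 SE, limma adjusted p = 0.00929). Its direction depended on the scaling: median centring gave 0.07, not called (limma adjusted p = 0.271), and spike-in scaling 0.50, called. The call was lost with the local backgrounds as measured, where the value was further from 0, at -0.21 (limma adjusted p = 0.0629), and when the replicate 1 array with grade 1 in Cy5 was dropped (0.0771).

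The probes of CYP1B1 differed by more than the spread between arrays. The brighter exceeded the dimmer on all 4 arrays, with a difference of 0.87 ± 0.06 in log2 fold change (limma adjusted p = 6e-05, over the 784 pairs of probes of one named gene). Of those pairs 33.5% were called different, and 7.14% differed by more than the CYP1B1 pair. The difference stayed between 0.77 and 0.93 and was called in all 16 alternative settings. Spike-in scaling cannot move this difference, since it shifts both probes of an array alike. The filter, threshold, dye and block settings also left it at 0.87. With the mean of both probes CYP1B1 had a log2 fold change of 0.26, still called higher. Opposite calls by different probes occurred in 14 (4.03%) of the 347 named genes with more than one tested probe, CYP1A2 and CYP1B1 among them. The sequences of the probes were not used here, so which part of the transcript each probe reads is not given.

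CYP1A2, the main drug-oxidising enzyme of the family in liver, also had probes that disagreed. The brighter, A_11_P0000020162, gave log2 ratios of 0.08 and -0.47 with grade 3 in Cy5 and of -0.18 and -0.36 with grade 1 in Cy5. One array was above 0 and 3 below, and the array pair with the same dyes differed more than the orientations did. Its level was 7.98 ± 0.09 in grade 3 and 8.21 ± 0.16 in grade 1 (SD, n = 4 arrays), with overlap. It was called lower, 1.18-fold (log2 fold change -0.23 ± 0.08 SE, 95% confidence interval -0.41 to -0.05, limma adjusted p = 0.0292). That call was lost when either replicate 2 array was dropped, at -0.10 (limma adjusted p = 0.173) without the one with grade 3 in Cy5 and at -0.19 (0.11) without the swapped one. It was also lost with the local backgrounds as measured, with median centring and without a dye term, and with spike-in scaling the value turned to 0.43 and was called higher.

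The other CYP1A2 probe, A_11_P050961, was printed in 5 spots per array and was dim. The mean of its spots read 123, 100.9, 111 and 124.9 scanner units in grade 3 and 58.5, 56.2, 65.3 and 70.7 in grade 1, on backgrounds of 26.7 to 40.1. All 5 spots were well above background in grade 3 on every array, and 4 or 5 of 5 in grade 1. Its log2 ratios were 0.39 and 0.32 with grade 3 in Cy5 and 0.55 and 0.49 with grade 1 in Cy5, so all 4 arrays were above 0. Each of the 5 spots was above 0 on each array, with an SD between spots of 0.07 to 0.15. The probe was called higher, 1.35-fold (log2 fold change 0.44 ± 0.05 SE, 95% confidence interval 0.33 to 0.54, limma adjusted p = 2.91e-05).

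The size of this difference moved with the processing. With an offset of 10 units in place of 50 the log2 fold change was 0.72, or 1.65-fold. With the processed signals, which differ in background subtraction and dye normalization too, it was 1.27, or 2.40-fold. With the local backgrounds as measured it was 0.22 and not called (limma adjusted p = 0.15). The sign was the same in all 16 alternative settings, though the filter, threshold, dye and block settings left the value as reported.

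**Figure D4:**
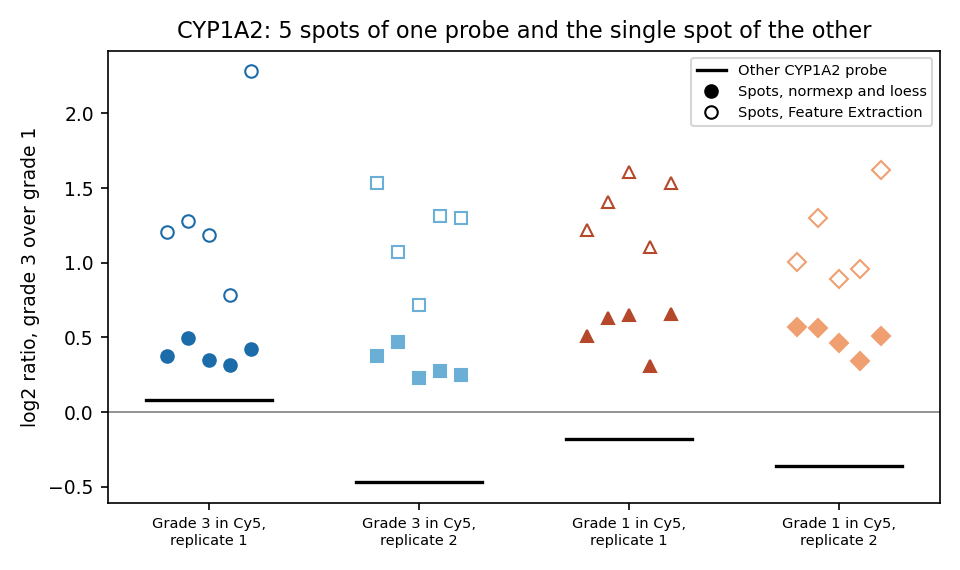
Log2 ratio of grade 3 over grade 1 (vertical axis) of the 5 spots of CYP1A2 probe A_11_P050961 on each array (horizontal axis), filled for normexp and loess values and open for the deposited Feature Extraction ratios, with a line for the single spot of probe A_11_P0000020162. Every spot is above 0 and above the line of the other probe on its array.

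The CYP1A2 probes differed by -0.67 ± 0.08 in log2 fold change, the brighter minus the dimmer, in the same direction on all 4 arrays (limma adjusted p = 0.0012, over the same 784 pairs). The difference was lost as a call with the local backgrounds as measured (-0.31, limma adjusted p = 0.188) and grew to -1.61 with the processed signals. With the mean of both probes CYP1A2 had a log2 fold change of 0.10, not called (limma adjusted p = 0.165). No direction for the gene follows from these probes.

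The genes nearest to CYP1B1 by its brighter probe were KLK5 (distance 0.09), a skin protease gene, BHLHE41 (0.22), a circadian repressor gene, and GALC (0.22), a lysosomal galactosidase gene, with log2 fold changes of 0.72, 0.68 and 0.66. Those nearest to CYP1A2 by its brighter probe were MAP2K2, TLR9 and GNB3, at distances of 0.24, 0.25 and 0.28. The CYP1A2 neighbours had log2 fold changes of -0.28, -0.27 and -0.19, close to that of CYP1A2 by the way they were picked.

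Other cytochrome P450 genes mostly had small values with the processing as reported. The 9 tested members of this list, CYP1A2 and CYP1B1 included, had a median of -0.11, with 2 higher, 4 lower and 3 not called. With spike-in scaling all of the 9 were above 0. POR, the reductase that feeds electrons to these enzymes, was 1.30-fold lower by its brightest probe (log2 fold change -0.37 ± 0.05), while its other probes had -0.08 and 0.11. CYP2B6 had -0.19 ± 0.06 on 3 arrays, since its spot was marked as an outlier on the fourth and dropped there, and it was not called without the replicate 2 array with grade 3 in Cy5 (limma adjusted p = 0.0704) or with same-numbered arrays averaged as a replicate block (-0.15, limma adjusted p = 0.0905). CYP21A2, the adrenal steroid 21-hydroxylase gene, was 1.18-fold higher.

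The drug-metabolising CYP2D15 and CYP3A12, enzymes of dog liver, had -0.11 ± 0.05 and -0.06 ± 0.06 and were not called (limma adjusted p = 0.0671 and 0.417). CYP2A13 had 0.05 ± 0.05 by its brightest probe (limma adjusted p = 0.369) and 0.18 by its other. CYP19A1, the aromatase gene, was not well above background in grade 3 on any array, where its level was 6.09 against 6.34 in grade 1. With the values as reported it was at least 1.18-fold lower, which lies close to the ratio of those measured levels and holds for this processing alone. It was 4.55-fold lower with the processed signals (limma adjusted p = 0.000229), and 1.13-fold lower and not called with the local backgrounds as measured (0.204). With spike-in scaling it turned to 0.42, and without the replicate 2 array with grade 1 in Cy5 it was not called (limma adjusted p = 0.0655). CYP2E1, CYP3A26, CYP4A37 and CYP4A38 had named probes that did not pass the filter on dim signal. The paralogs of these families are similar in sequence, and a probe can read more than one of them.

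Few genes of the receptor pathways around the CYP1 enzymes could be named. Of 21 listed genes of the aryl hydrocarbon receptor pathway and other xenobiotic receptors only 2 were tested, and both were lower. PPARA, a lipid-sensing nuclear receptor gene, was 1.64-fold lower by its brightest probe (log2 fold change -0.71 ± 0.05), and -0.04 and not called with spike-in scaling. ALDH3A1, an aldehyde dehydrogenase gene that the aryl hydrocarbon receptor induces, had -0.17 ± 0.05, against 0.04 for its other probe. Its brightest probe turned to 0.06 with median centring and 0.49 with spike-in scaling. The aryl hydrocarbon receptor itself, its partner and its repressor were not analysed here.

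A list of conjugating, hydrolysing and stress-response enzymes went both ways. It holds HMOX1 and TXNRD1, a haem oxygenase and a thioredoxin reductase gene, which do not conjugate drugs. The 8 tested had a median of -0.18, with 1 higher, 4 lower and 3 not called. HMOX1, the stress-induced haem oxygenase gene, was 2.43-fold lower (log2 fold change -1.28 ± 0.09), and CES1, a carboxylesterase gene of liver and macrophages, 2.19-fold lower (-1.13 ± 0.06). Both stayed lower and called in all alternative settings, HMOX1 only narrowly with the local backgrounds as measured (limma adjusted p = 0.0483). UGT2B31, a glucuronosyltransferase gene, was 1.23-fold lower, and turned to 0.37 with spike-in scaling. UGT1A6, the glucuronosyltransferase gene that is itself inducible by aromatic compounds, was 1.38-fold higher (0.47 ± 0.05), and its call was lost with the local backgrounds as measured (limma adjusted p = 0.136). The same setting ended the calls on CUBN, SLC5A1, SLC2A1, SLC2A4, SLCO1B3, POR, CYP2B6, CYP19A1, CYP21A2, PPARA, ALDH3A1 and UGT2B31.

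Markers of mammary epithelium were present. Of 10 listed luminal genes 7 were tested, and all 7 were well above background in both grades. Of these 4 were higher in grade 3, 1 was lower and 2 were not called. The lower gene was PGR (log2 fold change -0.57 ± 0.05), and ERBB2 and CLDN3 were not called. The summed level of the 7 was 368200 to 479900 in grade 3 and 46820 to 103700 in grade 1. That sum is mostly CSN2 and LALBA, with log2 levels of 18.27 and 16.41 in grade 3 and 15.45 and 13.91 in grade 1. The milk protein genes CSN2 and LALBA were 7.03-fold and 5.66-fold higher; they were named after their values were seen. The hepatocyte genes SERPINA1 and APOH, the tested pair of 10 listed, were 2.80-fold and 1.19-fold lower. The summed level of fibroblast markers was 308000 to 400200 in grade 3 and 480400 to 550500 in grade 1, with 4 of 5 lower. That sum is mostly COL1A2 and DCN, with log2 levels of 17.20 and 17.07 in grade 3 and 17.74 and 17.41 in grade 1. COL1A2 ran from -1.28 to 0.32 over the arrays, with 1 array above 0. All 6 tested T and NK cell markers were lower in grade 3, from -1.41 for KLRD1 to -0.14 for PRF1. Of 5 endothelial markers 4 were lower, while SELE was higher by its brightest probe (0.33) and had -0.00 by its other. Over all 925 named genes 46.1% were called lower and 24.1% higher. The part of these marker shifts in the ABCB1 and CYP1 results was not tested.

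Across the settings SLC15A1 and the brighter CYP1B1 probe kept both direction and call. The second CYP1A2 probe kept its direction and lost its call with the local backgrounds as measured. ABCB1 and CYP1A2 crossed 0 with spike-in scaling, the second CYP1B1 probe with that and with median centring, and CYP1A2 also with the mean of its probes.

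**Figure D5:**
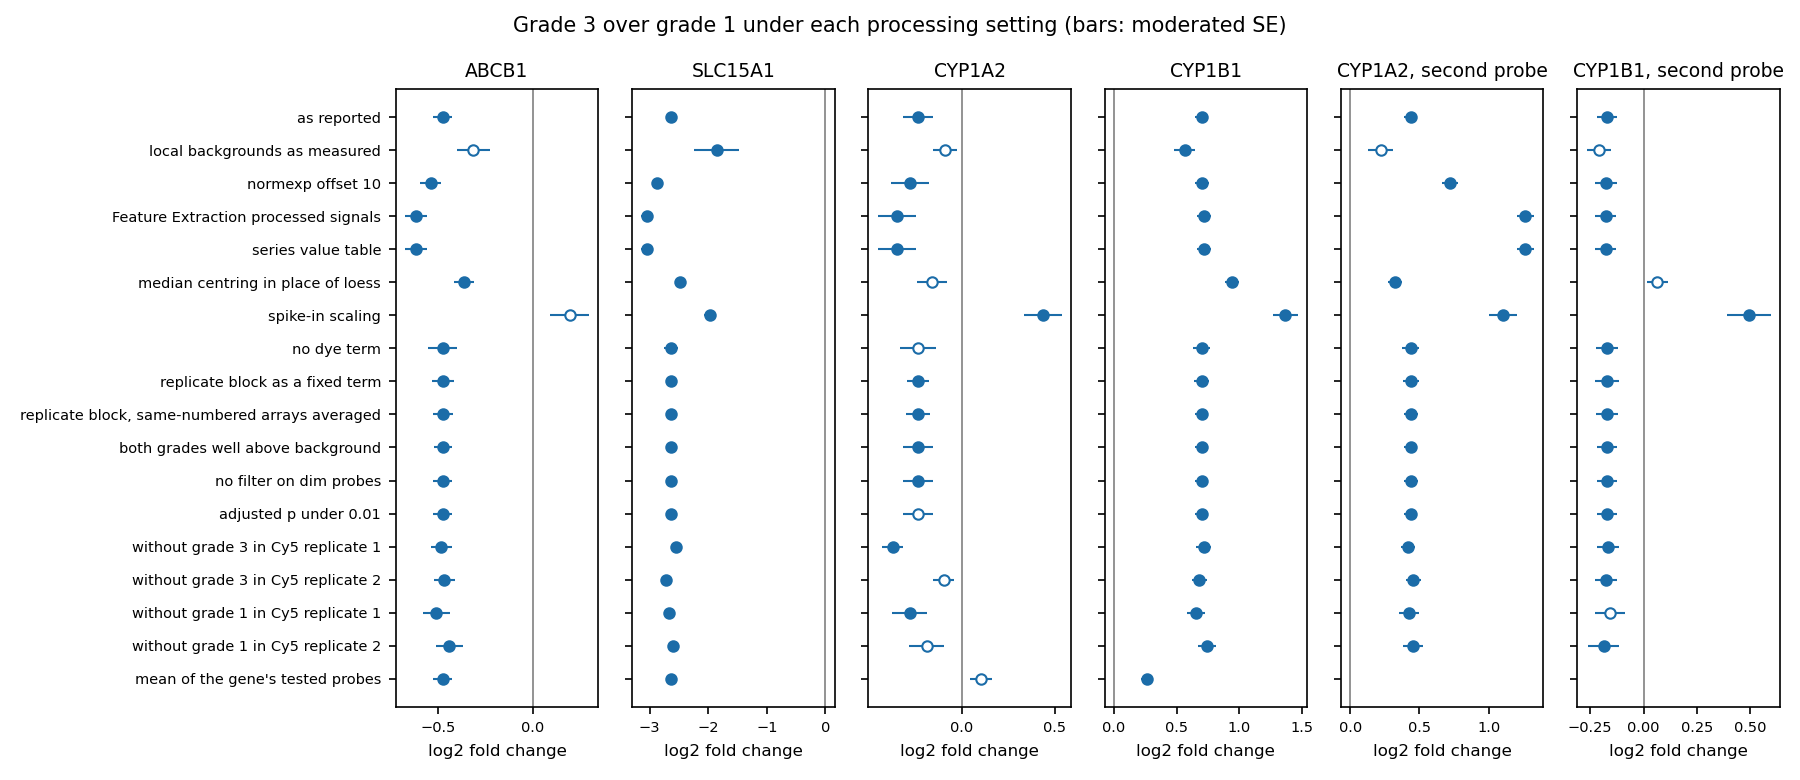
Log2 fold change of grade 3 over grade 1 with its moderated SE (horizontal axes, one panel per tested member probe) under each processing setting (vertical axis), filled where the adjusted p passed the threshold and open where it did not. SLC15A1 lies between -3.05 and -1.86 in every setting, while ABCB1, CYP1A2 and the second CYP1B1 probe cross 0 with spike-in scaling.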

How the data were processed

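The submitters' processing notes name Agilent Feature Extraction, version 10.7.3.1. The deposited median signals and local backgrounds are intensity values on a linear scale, and the deposited processed signals are intensity values that were background-subtracted and dye-normalized, per the file headers. Both the value table and the LogRatio column were deposited as log10 ratios of those signals; turned to grade 3 over grade 1, they differed by at most 4.99e-06, and each table column had a median of 0. The deposited spot marks count as other values, per the file headers.

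The log2 ratios were computed from the deposited signals with limma 3.58.1 in R 4.3.3. For local backgrounds marked as outliers (151 to 2352 per channel) the median of that array's channel was used, background was corrected with normexp (offset 50), and arrays were normalized with loess. Outlier-marked spots were dropped and a probe's spots averaged. A probe was tested if 1 grade or both were well above background on each of the 4 arrays. The test was a limma fit with a grade and a dye term, eBayes and Benjamini-Hochberg adjustment, two-sided. Alternatives changed the background, the scaling, the filter, the dye term, the threshold, the block or the arrays. The brightest probe stood for its gene. Median signals lay between 215 and 402 units on backgrounds of 28 to 41, and the number of arrays limits the precision.

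Probes were named through RefSeq accessions listed for assembly UU_Cfam_GSD_1.0, which matched 1648 of 43603; no coordinates or sequences were used. The named genes are all member probes, up to 3 highest and 3 lowest called genes of each list, family members and the 3 nearest genes. Members, lists and the background step were chosen with earlier results of these data known. The tests were checked on simulated data.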

Additional observations from a re-analysis of the deposited data

Results flagged for a closer look

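A single array lying far from the other 3 was looked for in the 35 probes of the members and of the named related genes. CYP2B6, measured on 3 arrays, was among the 35 but was skipped. Chance gives about 1 in 20 such groups, and 4 probes had one, none of them of a member. CFTR had a log2 ratio of -1.33 on the replicate 2 array with grade 1 in Cy5 and -1.66 to -1.61 elsewhere. ABCC1 had -0.43 on the replicate 1 array with grade 3 in Cy5 and -0.15 to -0.14 elsewhere. ALDH3A1 had -0.16 on the replicate 1 array with grade 1 in Cy5 and -0.18 elsewhere, a small gap in size. TFF3 had 1.45 on the replicate 2 array with grade 3 in Cy5 and 1.97 to 2.03 elsewhere.

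For 3 genes that were not called, both arrays of one dye orientation lay on the other side of 0 from both of the other; the difference was not tested. ABCC4 had a mean of -0.0465 with grade 3 in Cy5 and 0.0033 and 0.12 with grade 1 in Cy5. CYP3A12 had a mean of 0.16 against -0.30 and -0.24. CYP2A13 had a mean of 0.24 against -0.20 and -0.06.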

How the results depend on the processing

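Causes were not tested. SLC15A1 kept direction and call in all 17 alternatives. So did the brighter CYP1B1 probe and the difference between the CYP1B1 probes, in all 16 run on them. These alternatives are not separate checks. The value table repeats the processed signals, and the filter, threshold, dye and block settings left these log2 values as reported. For SLC15A1, which has a single probe, the mean of the gene's probes repeats the reported fit. Spike-in scaling cannot change a difference between probes of one array. With the local backgrounds as measured 2328 probes were higher and 4418 lower (11030 and 10802 as reported), with 1 member probe called in each direction; ABCB1 had -0.31, CYP1A2 -0.0905 and the CYP1A2 probe difference -0.31, none of them called. Median centring left 2 member probes lower, with CYP1A2 at -0.16, not called; it turned the second CYP1B1 probe to 0.0655, ALDH3A1 to 0.0604, ABCC5 to 0.0039 and CYP3A12 to 0.11. Spike-in scaling gave 32260 probes higher and 917 lower, with 4 member probes higher and 1 lower. It turned ABCB1 to 0.19, CYP1A2 to 0.43, the second CYP1B1 probe to 0.50, ABCA4 to 0.32, ABCC1, ABCC2 and ABCC5 to 0.45, 0.45 and 0.45, SLCO1B3 to 0.50, POR to 0.29, CYP19A1 to 0.42, CYP2B6, CYP2D15 and CYP3A12 to 0.56, 0.56 and 0.61, ALDH3A1 to 0.49 and UGT2B31 to 0.37. CYP1A2, at -0.23, was not called without a dye term (adjusted p = 0.0878) or at an adjusted p under 0.01, and the mean of its probes turned it to 0.10. The processed signals and the value table turned ABCC4 to -0.0048.

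Leaving out 1 array at a time gave 9093 to 10971 probes higher and 9005 to 10798 lower, 2 member probes higher and 3 to 4 lower, ABCB1 from -0.51 to -0.44, CYP1A2 from -0.37 to -0.10, the CYP1A2 difference from -0.79 to -0.55, CYP3A12 from -0.13 to 0.017 and ABCC4 from -0.0216 to 0.0378.

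Whether same-numbered arrays share an extract is not given. Their deviations from the mean of their dye orientation had a correlation of -0.09 over 35377 probes. With 2 arrays per orientation this cannot settle it. With the replicate block as a fixed term 10921 probes were higher and 10640 lower, and with same-numbered arrays averaged 11620 and 11273; no member call changed under either block, while CYP2B6 lost its call with the arrays averaged (-0.15). Signal over background limits the second ABCB1 probe and the dim CYP1A2 probe.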
